A study of Mus musculus with 11 samples.

Results

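The mammalian BAF complexes, relatives of yeast SWI/SNF, use ATP to move and evict nucleosomes, and several of their positions can be filled by alternative subunits encoded by paralogous genes. Expression was examined here for 10 genes of such positions. Actl6a, Phf10, Dpf2 and Ss18 are assigned to the complex of neural progenitors, Actl6b, Dpf1, Dpf3 and Ss18l1 to that of neurons, and Smarca2 and Smarca4 encode the alternative ATPases. They were taken by gene symbol, not by their values, and are 10 of 19938 genes that had a probe set annotated to a single symbol. Each of the 10 had 1 such probe set, each of these lay above the filter on low values, and all were tested together with the rest of the 16527 genes kept.

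As background, when neural progenitors leave the cell cycle, the actin-related subunit ACTL6A (BAF53a) is known to give way to ACTL6B (BAF53b), PHF10 and DPF2 of the double-PHD-finger position to DPF1 and DPF3, and SS18 to its paralog SS18L1, also called CREST. This exchange is known as the BAF subunit switch. In mouse, miR-9-3p (miR-9*) and miR-124 repress Actl6a in postmitotic neurons, and the repressor REST holds both microRNAs down in non-neuronal cells and progenitors. ACTL6B and SS18L1 are known for activity-dependent dendrite growth.

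The data come from 11 arrays (Affymetrix Mouse Gene 1.0 ST) hybridized with RNA of green fluorescent cells sorted from the dentate gyrus, a hippocampal region with lifelong birth of granule neurons, at postnatal day 35 in the mouse. PomcGFP mice (2 arrays) carry a GFP transgene for Pomc, whose reporter is known to label newborn granule neurons. In kiTbr2GFP mice (3 arrays) GFP was knocked into Eomes, whose product TBR2 marks intermediate progenitors of neurons, and in tgTbr2GFP mice (3 arrays) GFP comes from an Eomes BAC transgene. NesGFP mice (3 arrays) carry a GFP transgene for Nes, the gene of the stem cell filament protein nestin. No group lacks a reporter, and a sorted population is defined by GFP alone. Per the labels the RNA was amplified before hybridization. Whether each array stands for its own animals is not stated, so a p-value reflects the spread between arrays, and that spread may be technical. All values are log2 expression values, and a difference is the mean log2 level of the first-named group less that of the other, with the standard error (SE) of the fit. A gene passed a comparison when limma's moderated test gave it an adjusted p under 0.05 (Benjamini-Hochberg, over the 16527 genes). The number of arrays limits the precision.

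The lines differed widely in cell type markers. The mean level of 6 endothelial markers lay at 6.72 to 7.21 on the PomcGFP arrays, 6.05 to 6.33 in kiTbr2GFP, 6.09 to 7.21 in tgTbr2GFP and 9.90 to 10.005 in NesGFP. For 5 mural markers it lay at 7.27 to 7.94, 7.10 to 7.18, 7.07 to 7.58 and 10.55 to 10.62 in the same order of lines, and for 5 oligodendrocyte markers at 8.97 to 9.03, 7.27 to 7.86, 7.26 to 9.18 and 10.80 to 11.02. The marker counts given next are of those that passed limma's test as higher or lower. Of all genes 15.9% passed as higher and 24% as lower in PomcGFP against NesGFP. In the Tbr2 lines against NesGFP 19.8% and 29.1% did. All 6 endothelial, 5 mural, 5 oligodendrocyte precursor and 8 stem cell and astrocyte markers were lower than in NesGFP, both in PomcGFP and in the Tbr2 lines. Of the oligodendrocyte markers 3 of 5 passed as lower in PomcGFP and 5 of 5 in the Tbr2 lines. All 5 differences of PomcGFP were negative (-3.28 to -0.058). The mean of the stem cell and astrocyte markers was 8.85 to 8.90 in PomcGFP, 8.59 to 8.74 in kiTbr2GFP, 8.95 to 9.24 in tgTbr2GFP and 10.35 to 10.57 in NesGFP. Of the intermediate progenitor markers, 5 of 6 were higher in the Tbr2 lines than in NesGFP, and of the dividing-cell markers 5 of 7 were. Of the immature neuron markers 4 of 6 were higher than in NesGFP, both in PomcGFP and in the Tbr2 lines. Of the mature neuron markers, 5 of 6 passed as higher in PomcGFP than in NesGFP, with differences of 0.53 to 1.97 over all 6. In the Tbr2 lines against NesGFP 3 passed as higher and 2 as lower. Of the 7 microglial markers 4 passed as higher in PomcGFP than in NesGFP, with differences of 0.13 to 1.65 over all 7. In such bulk samples fewer cells of a type and less RNA per cell cannot be told apart. No marker value is 0 on this scale. NesGFP therefore differs from the other lines in vessel, glial and neuronal markers at once, and the part of these cell types in each difference from NesGFP below was not tested.

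**Figure D1:**
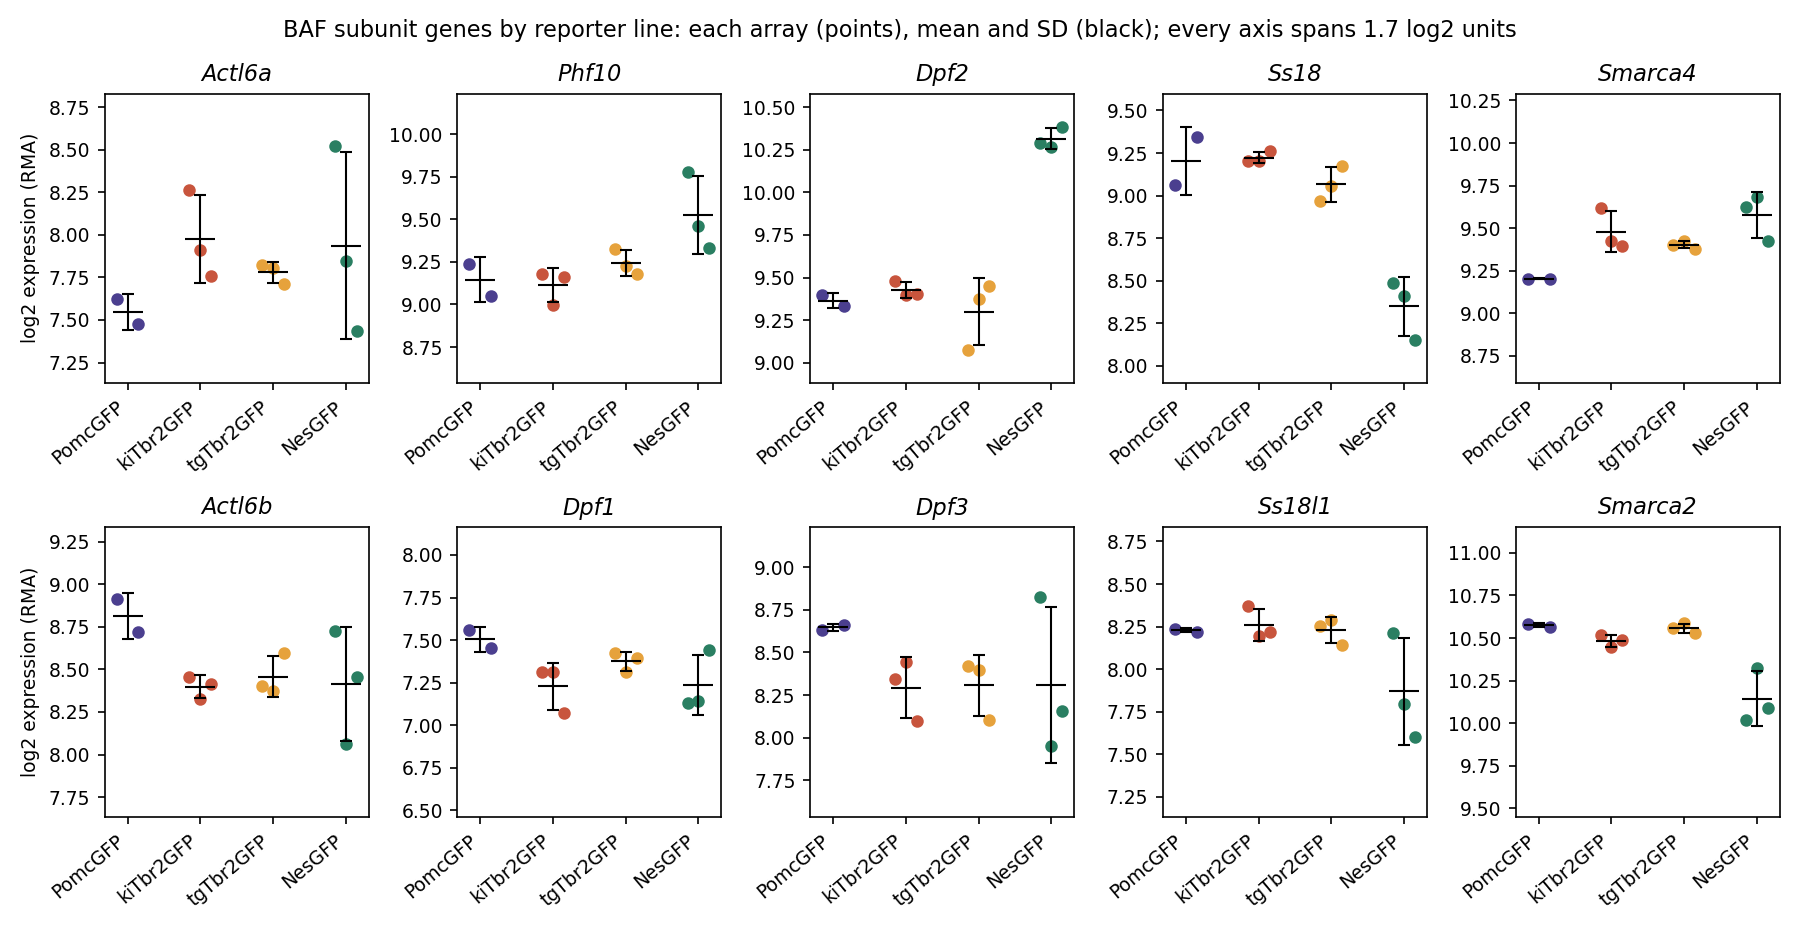
Log2 expression of the 10 BAF subunit genes on each array (points) by reporter line, with the line mean and SD in black; every vertical axis spans the same width but starts at its own level. The NesGFP arrays lie apart from all the others for Dpf2 (above), Ss18 and Smarca2 (below), whereas for Actl6a and Dpf3 they span the whole range of the other lines.

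Promoters are shown for the best known pair of the switch, Actl6a and Actl6b, and for Dpf2, which had the widest difference between lines among the 10 genes. The letters are the 250 bases before the RefSeq start (GRCm38.p6), read 5′ to 3′ on the strand of the gene, with GC boxes (GGGCGG or its complement CCGCCC) and CCAAT boxes (CCAAT or its complement ATTGG) in capitals. The Actl6a window is chr3:32708296-32708545 (plus strand), that of Actl6b is chr5:137553296-137553545 (plus strand) and that of Dpf2 is chr19:5912872-5913121 (minus strand). The start used for Actl6b lies 185 bases inside the annotated gene.
Actl6a: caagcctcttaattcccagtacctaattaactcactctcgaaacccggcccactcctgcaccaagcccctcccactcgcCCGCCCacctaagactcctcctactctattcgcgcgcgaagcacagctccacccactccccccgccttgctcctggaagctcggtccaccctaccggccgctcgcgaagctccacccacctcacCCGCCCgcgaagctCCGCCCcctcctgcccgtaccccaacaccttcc
Actl6b: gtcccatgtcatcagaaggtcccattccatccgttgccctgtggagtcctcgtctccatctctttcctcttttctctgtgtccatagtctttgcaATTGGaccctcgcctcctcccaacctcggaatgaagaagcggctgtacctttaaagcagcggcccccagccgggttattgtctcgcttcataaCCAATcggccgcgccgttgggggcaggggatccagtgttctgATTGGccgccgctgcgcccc
Dpf2: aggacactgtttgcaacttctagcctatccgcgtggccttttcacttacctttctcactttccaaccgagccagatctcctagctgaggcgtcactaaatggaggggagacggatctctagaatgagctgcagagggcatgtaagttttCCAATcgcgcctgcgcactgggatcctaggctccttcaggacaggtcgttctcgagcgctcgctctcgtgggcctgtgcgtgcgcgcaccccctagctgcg
The Actl6a window held 3 GC boxes and no CCAAT box, that of Actl6b held 3 CCAAT boxes and no GC box, and that of Dpf2 held 1 CCAAT box. A GC box occurred in 7 of the 9 genes with a promoter entry and in 32.7% of 32851 promoters of the same length, and a CCAAT box in 4 of 9 and in 33.8%. G and C made up 64.8% of the Actl6a window, 58.0% of the Actl6b window and 57.2% of the Dpf2 window, against a median of 52.4% over all promoters. These matches describe the letters, and binding was not measured. The 32851 promoters were not selected by gene type, so they are not a matched background for the 9 genes.

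Between PomcGFP and NesGFP, Dpf2 and the ATPase gene Smarca4 were lower and Ss18 and the ATPase gene Smarca2 were higher, which is 4 of the 10 genes, 2 in each direction. Of all genes 39.9% passed that comparison, 15.9% higher and 24% lower, so the share among the 10 genes is close to that of the background. In the Tbr2 lines (mean of kiTbr2GFP and tgTbr2GFP) against NesGFP, Ss18, Smarca2 and Ss18l1 were higher and Dpf2 and Phf10 lower, 5 of 10, where 48.9% of all genes passed, 19.8% higher and 29.1% lower. Both comparisons use the same 3 NesGFP arrays. Between PomcGFP and the Tbr2 lines 0 of 10 passed in limma, where 3.73% of all genes passed, 2% higher and 1.73% lower. An unadjusted p under 0.05 was reached by 2 of the 10 and by 2191 of all 16527 genes. Between kiTbr2GFP and tgTbr2GFP 0 of 10 passed, where 1.12% of all genes passed, 0.436% higher and 0.684% lower. There 0 of the 10 and 1523 of all 16527 genes had an unadjusted p under 0.05. The actin-related pair Actl6a and Actl6b passed none of these comparisons.

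**Figure D2:**
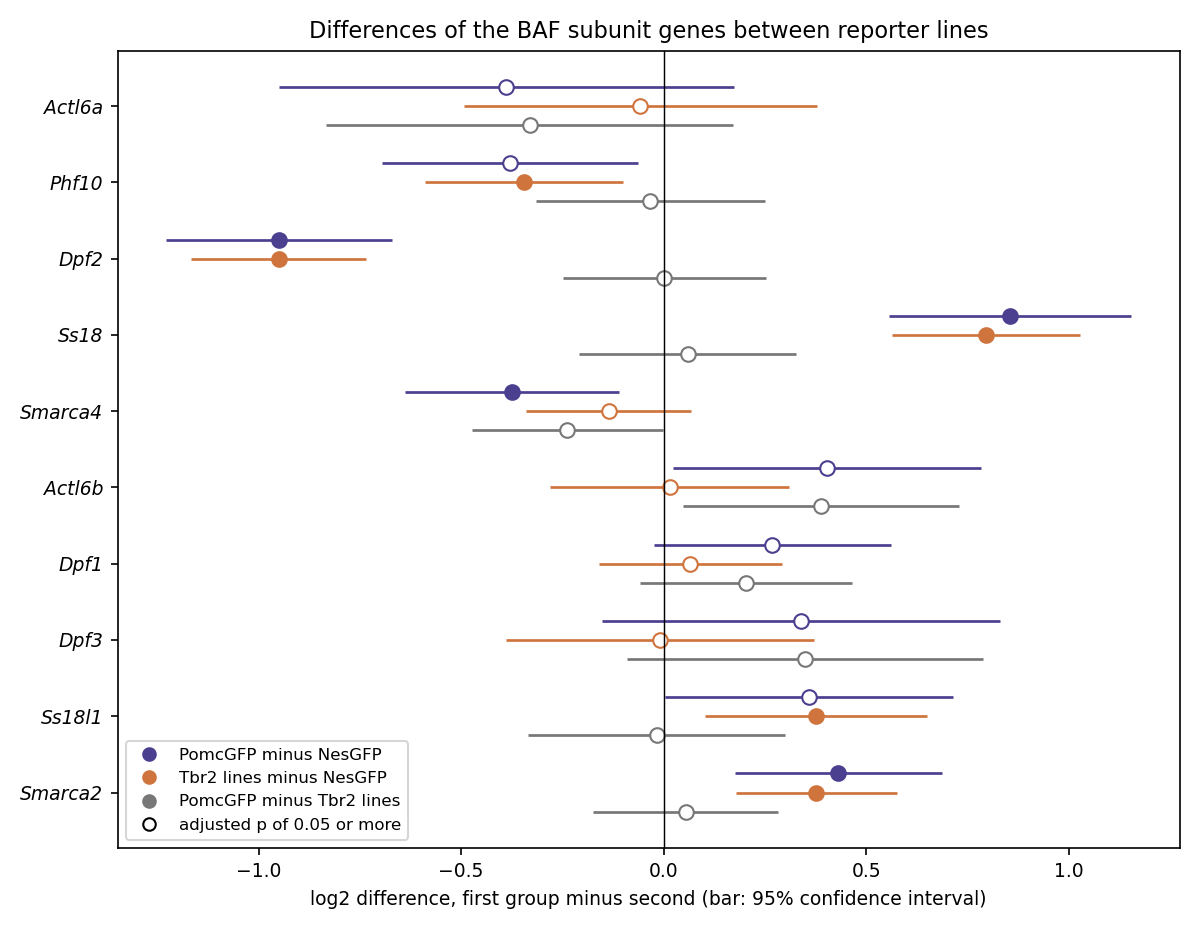
Log2 differences of the 10 genes, first group minus second, in 3 comparisons, with bars for the 95% confidence interval; filled points passed limma's test (adjusted p under 0.05) and open points did not. Dpf2 at -0.95 and Ss18 at 0.85 and 0.80 lie farthest from 0, and every point of PomcGFP minus the Tbr2 lines is open.

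Each BAF complex holds a single ATPase, SMARCA2 or SMARCA4. Smarca2 (probe set 10462237, chr19:26605073-26778321) encodes BRM. It stood at 10.58 and 10.57 in PomcGFP, at 10.52, 10.45 and 10.49 in kiTbr2GFP, at 10.56, 10.59 and 10.53 in tgTbr2GFP and at 10.02, 10.33 and 10.09 in NesGFP. The 3 NesGFP arrays were the lowest of the 11, and the other 8 lay close together. Smarca2 was higher by 0.43 ± 0.12 (SE) in PomcGFP than in NesGFP (limma, adjusted p = 0.012) and by 0.38 ± 0.09 (SE) in the Tbr2 lines than in NesGFP (adjusted p = 0.00467). Without the first or the second PomcGFP array the difference from NesGFP was 0.42 and 0.44, at an adjusted p of 0.0705 and 0.0626, and in a fit of PomcGFP and NesGFP alone the adjusted p was 0.0788.

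Smarca4 (probe set 10583697, chr9:21616106-21704230) encodes BRG1, the ATPase that neural stem cells are known to need for self-renewal. It stood at 9.20 and 9.20 in PomcGFP, at 9.62, 9.42 and 9.40 in kiTbr2GFP, at 9.40, 9.42 and 9.38 in tgTbr2GFP and at 9.63, 9.68 and 9.42 in NesGFP. Both PomcGFP arrays were below the other 9, while the Tbr2 lines and NesGFP overlapped. Smarca4 was lower in PomcGFP than in NesGFP, with a difference of -0.37 ± 0.12 (SE; limma, adjusted p = 0.0276). Its differences were -0.14 ± 0.09 (SE; adjusted p = 0.25) for the Tbr2 lines against NesGFP and -0.24 ± 0.11 (SE; adjusted p = 0.369) for PomcGFP against the Tbr2 lines. The call against NesGFP was lost without the first NesGFP array (-0.35, adjusted p = 0.0602), the second NesGFP array (-0.32, adjusted p = 0.0707), the first PomcGFP array (-0.38, adjusted p = 0.112) or the second PomcGFP array (-0.37, adjusted p = 0.119), after cyclic loess normalization (-0.17, adjusted p = 0.175) and in a fit of PomcGFP and NesGFP alone (adjusted p = 0.101).

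Among the progenitor subunits, Dpf2 and Ss18 moved in opposite directions. Dpf2 (probe set 10465263, chr19:5896516-5912871) encodes BAF45d, whose double PHD finger reads acylated histone H3 tails and which is also widely expressed outside progenitors. It stood at 9.40 and 9.33 in PomcGFP, at 9.48, 9.40 and 9.40 in kiTbr2GFP, at 9.08, 9.37 and 9.45 in tgTbr2GFP and at 10.29, 10.27 and 10.38 in NesGFP. The 3 NesGFP arrays lay far above the other 8, whose values mixed between lines. Dpf2 was lower in PomcGFP (-0.95 ± 0.13, SE; limma, adjusted p = 0.000141) and in the Tbr2 lines (-0.95 ± 0.10, SE; adjusted p = 1.11e-05) than in NesGFP. PomcGFP and the Tbr2 lines differed by 0.00 with a 95% interval of -0.25 to 0.25.

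Ss18 (probe set 10457598, chr18:14625629-14684419) encodes the subunit that is fused to SSX proteins in human synovial sarcoma. It stood at 9.06 and 9.35 in PomcGFP, at 9.20, 9.21 and 9.26 in kiTbr2GFP, at 8.97, 9.05 and 9.18 in tgTbr2GFP and at 8.49, 8.41 and 8.15 in NesGFP. The NesGFP arrays were the 3 lowest. Ss18 was higher by 0.85 ± 0.14 (SE) in PomcGFP (limma, adjusted p = 0.00047) and by 0.80 ± 0.11 (SE) in the Tbr2 lines (adjusted p = 7.61e-05) than in NesGFP. PomcGFP and the Tbr2 lines differed by 0.06, with a 95% interval of -0.21 to 0.33. The direction is the reverse of the one its place among the progenitor subunits names, and it was kept without any single array and in each of the other settings tried, as was that of Dpf2.

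Phf10 (probe set 10448004, chr17:14944994-14961260), which encodes BAF45a of progenitor complexes, stood at 9.24 and 9.05 in PomcGFP, at 9.18, 8.9998 and 9.16 in kiTbr2GFP, at 9.32, 9.22 and 9.18 in tgTbr2GFP and at 9.78, 9.46 and 9.33 in NesGFP. The NesGFP arrays were the 3 highest, the third of them by a narrow margin. Phf10 was lower in the Tbr2 lines than in NesGFP (-0.35 ± 0.11, SE; limma, adjusted p = 0.0233). For PomcGFP against NesGFP the difference was -0.38 ± 0.14 (SE) and the adjusted p 0.0559. The call in the Tbr2 lines rests in part on single arrays: leaving out the first NesGFP array gave a difference of -0.22 (adjusted p = 0.119), leaving out the second kiTbr2GFP array gave -0.32 (adjusted p = 0.0543), and after cyclic loess it was -0.17 (adjusted p = 0.168).

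Actl6a (probe set 10491385, chr3:32708546-32726973), whose protein BAF53a is needed for progenitor division, stood at 7.62 and 7.47 in PomcGFP, at 8.26, 7.91 and 7.76 in kiTbr2GFP, at 7.82, 7.80 and 7.71 in tgTbr2GFP and at 8.52, 7.85 and 7.44 in NesGFP. Both PomcGFP arrays lay below the 6 Tbr2 arrays, but the NesGFP arrays held both the highest and the lowest value of the 11. The differences were -0.39 ± 0.26 (SE; limma, adjusted p = 0.253) for PomcGFP against NesGFP, -0.06 ± 0.20 (SE; adjusted p = 0.83) for the Tbr2 lines against NesGFP and -0.33 ± 0.23 (SE; adjusted p = 0.692) for PomcGFP against the Tbr2 lines. The 95% interval of the last ran from -0.83 to 0.17, and a difference of the size seen for Dpf2 against NesGFP lies outside it. Without the third NesGFP array, the lowest, Actl6a was lower in PomcGFP than in NesGFP (-0.64, adjusted p = 0.0333), and without the first, the highest, the difference was -0.09.

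Of the neuronal subunits, only Ss18l1 passed a test, in the Tbr2 lines against NesGFP. Ss18l1 (probe set 10479311, chr2:180042483-180070201) encodes CREST, a calcium-responsive transactivator. It stood at 8.24 and 8.22 in PomcGFP, at 8.37, 8.20 and 8.22 in kiTbr2GFP, at 8.26, 8.29 and 8.14 in tgTbr2GFP and at 8.21, 7.80 and 7.60 in NesGFP. The first NesGFP array fell among the other lines and the remaining NesGFP arrays lay below them all. Ss18l1 was higher by 0.38 ± 0.13 (SE) in the Tbr2 lines than in NesGFP (limma, adjusted p = 0.0271), and its difference for PomcGFP against NesGFP was 0.36 ± 0.16 (SE; adjusted p = 0.101). The call in the Tbr2 lines was lost without the second NesGFP array (0.34, adjusted p = 0.0862), the third NesGFP array (0.24, adjusted p = 0.119), the first kiTbr2GFP array (0.35, adjusted p = 0.0533) or the second tgTbr2GFP array (0.36, adjusted p = 0.054), and with each array centred on its median (0.31, adjusted p = 0.0834). For PomcGFP against NesGFP Ss18l1 passed in 2 of the 20 other settings, among them the fit without the first NesGFP array (0.53, adjusted p = 0.00734).

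Actl6b (probe set 10526614, chr5:137553361-137569582), the neuron-specific actin-related subunit BAF53b, stood at 8.91 and 8.72 in PomcGFP, at 8.45, 8.33 and 8.42 in kiTbr2GFP, at 8.40, 8.38 and 8.59 in tgTbr2GFP and at 8.72, 8.06 and 8.45 in NesGFP. Both PomcGFP arrays lay above the 6 Tbr2 arrays, and the first NesGFP array reached the lower of them. The difference of PomcGFP from the Tbr2 lines was 0.39 ± 0.15 (SE), with an unadjusted p of 0.0291 and an adjusted p of 0.279 in limma. For PomcGFP against NesGFP it was 0.40 ± 0.17 (SE; adjusted p = 0.0869), and for the Tbr2 lines against NesGFP 0.01 ± 0.13 (SE; adjusted p = 0.938). With array weights Actl6b passed as higher in PomcGFP than in the Tbr2 lines (0.43, adjusted p = 0.0285). Against NesGFP it passed without the first NesGFP array (0.56, adjusted p = 0.0164) and after cyclic loess (0.66, adjusted p = 0.0126).

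Dpf1 (probe set 10551741, chr7:29303952-29317592), which encodes BAF45b of neuronal complexes, stood at 7.56 and 7.45 in PomcGFP, at 7.31, 7.31 and 7.07 in kiTbr2GFP, at 7.42, 7.31 and 7.39 in tgTbr2GFP and at 7.13, 7.14 and 7.44 in NesGFP. Both PomcGFP arrays were above the other 9, by a margin narrower than the spread within NesGFP. The differences of PomcGFP were 0.27 ± 0.13 (SE; limma, adjusted p = 0.133) from NesGFP and 0.20 ± 0.12 (SE; adjusted p = 0.586) from the Tbr2 lines. Without the third NesGFP array Dpf1 passed as higher in PomcGFP than in NesGFP (0.37, adjusted p = 0.033).

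Dpf3 (probe set 10401359, chr12:83213751-83487736) encodes BAF45c, which also works in heart and skeletal muscle. It stood at 8.63 and 8.66 in PomcGFP, at 8.34, 8.44 and 8.10 in kiTbr2GFP, at 8.42, 8.40 and 8.10 in tgTbr2GFP and at 8.82, 7.95 and 8.16 in NesGFP. The PomcGFP arrays lay above all 6 Tbr2 arrays, and NesGFP spanned the range of all lines. The differences of PomcGFP were 0.34 ± 0.22 (SE; limma, adjusted p = 0.254) from NesGFP and 0.35 ± 0.20 (SE; adjusted p = 0.57) from the Tbr2 lines. Without the first NesGFP array Dpf3 passed as higher in PomcGFP than in NesGFP (0.60, adjusted p = 0.0138).

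The neuronal subunits thus took the same sign in PomcGFP against NesGFP without passing. The median difference of the 4 neuronal genes was 0.35, and that of the 4 progenitor genes was -0.38, against 0.00 over all genes tested. The neuronal differences ran from 0.27 to 0.40. The progenitor differences ran from -0.95 (Dpf2) to 0.85 (Ss18), with 1 gene passing in each direction, so their median joins opposite parts. In the Tbr2 lines against NesGFP the medians were 0.04 and -0.20, the latter over progenitor differences of -0.95 to 0.80, against -0.02 over all genes. Between PomcGFP and the Tbr2 lines they were 0.28 and -0.02, against 0.02 over all genes. The number of genes passing in PomcGFP against NesGFP ranged from 2 to 7 when single arrays were left out. It was 2 without the first or the second PomcGFP array, 6 when the first NesGFP array was left out and 7 when the third was. In a fit of these lines alone it was 2.

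In the levels themselves, without a test, genes were counted whose arrays did not overlap between groups. In PomcGFP against NesGFP 7 of 10 genes did not overlap, and neither did 58.9% of all genes. In the Tbr2 lines against NesGFP it was 4 of 10, against 41.7% of all genes, and in kiTbr2GFP against tgTbr2GFP it was 3 of 10, against 17.2%. In PomcGFP against the Tbr2 lines it was 5 of 10 (Actl6b, Dpf1 and Dpf3 above, Actl6a and Smarca4 below), against 16.7% of all genes, while none of these passed the test across genes. The groups there hold 2 and 6 arrays.

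Taken line by line, kiTbr2GFP differed from NesGFP in 5 of the 10 genes, with Ss18 (0.87), Ss18l1 (0.39) and Smarca2 (0.34) higher and Dpf2 (-0.89) and Phf10 (-0.41) lower, where 45.2% of all genes passed, 18.2% higher and 27% lower. In tgTbr2GFP against NesGFP 3 of 10 passed, Ss18 (0.72) and Smarca2 (0.41) higher and Dpf2 (-1.01) lower, where 41.6% of all genes passed, 15.8% higher and 25.8% lower. Ss18l1 differed by 0.36 (adjusted p = 0.0666) and Phf10 by -0.28 (adjusted p = 0.104) in that line, and the difference between the Tbr2 lines, tested directly, was 0.03 ± 0.14 (SE; limma, adjusted p = 0.998) for Ss18l1 and -0.13 ± 0.13 (SE; adjusted p = 0.959) for Phf10. Neither PomcGFP against kiTbr2GFP nor PomcGFP against tgTbr2GFP passed for any of the 10 genes in limma, where 4.88% and 1.37% of all genes passed. An unadjusted p under 0.05 was reached by 2 and 0 of the 10, and by 2363 and 1653 of all 16527 genes. The F test over the 4 lines passed for Dpf2 (adjusted p = 7.01e-05), Ss18 (adjusted p = 0.000368) and Smarca2 (adjusted p = 0.0178), 3 of 10, where 43.4% of all genes passed.

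The exchange within a position was followed by the difference between the paralogs on the same array, centred on the mean of the lines because levels of different probe sets cannot be compared. A positive value means a higher difference, neuronal less progenitor paralog, than the mean of the lines, and either gene can produce it. For Actl6b minus Actl6a they were 0.58 and 0.53 in PomcGFP, -0.52, -0.30 and -0.05 in kiTbr2GFP, -0.13, -0.14 and 0.17 in tgTbr2GFP and -0.51, -0.50 and 0.31 in NesGFP. Both PomcGFP arrays were above all the others, and the third NesGFP array was the nearest to them. For Dpf1 minus Dpf2 the values were 0.42 and 0.39 in PomcGFP, 0.09, 0.18 and -0.07 in kiTbr2GFP, 0.61, 0.20 and 0.21 in tgTbr2GFP and -0.90, -0.86 and -0.68 in NesGFP. There NesGFP stood apart and the other lines overlapped, as the levels of Dpf2 alone do. Dpf3 minus Dpf2 averaged 0.50 ± 0.07 in PomcGFP (SD, n = 2), 0.08 ± 0.18 in kiTbr2GFP (n = 3), 0.22 ± 0.35 in tgTbr2GFP (n = 3) and -0.79 ± 0.47 in NesGFP (n = 3).

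For Ss18l1 minus Ss18 the order was turned round. The values were -0.01 and -0.31 in PomcGFP, -0.02, -0.20 and -0.23 in kiTbr2GFP, 0.10, 0.05 and -0.22 in tgTbr2GFP and 0.54, 0.20 and 0.26 in NesGFP. They were highest in NesGFP, although Ss18l1 itself had its lowest mean there (7.87, against 8.23 to 8.26 in the other lines). The mean of Ss18 was lower in NesGFP by more (8.35, against 9.07 to 9.22). Smarca2 minus Smarca4 gave 0.36 and 0.34 in PomcGFP, -0.13, -0.00 and 0.06 in kiTbr2GFP, 0.13, 0.14 and 0.13 in tgTbr2GFP and -0.63, -0.38 and -0.36 in NesGFP. These 4 ranges did not overlap, and their order was PomcGFP, tgTbr2GFP, kiTbr2GFP and NesGFP, high to low. The double-PHD-finger values with Phf10 in place of Dpf2 averaged 0.28 for Dpf1 and 0.37 for Dpf3 in PomcGFP, 0.04 and 0.05 in kiTbr2GFP, 0.05 and -0.07 in tgTbr2GFP and -0.37 and -0.35 in NesGFP. No test was made on these paired values, which share arrays and genes.

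**Figure D3:**
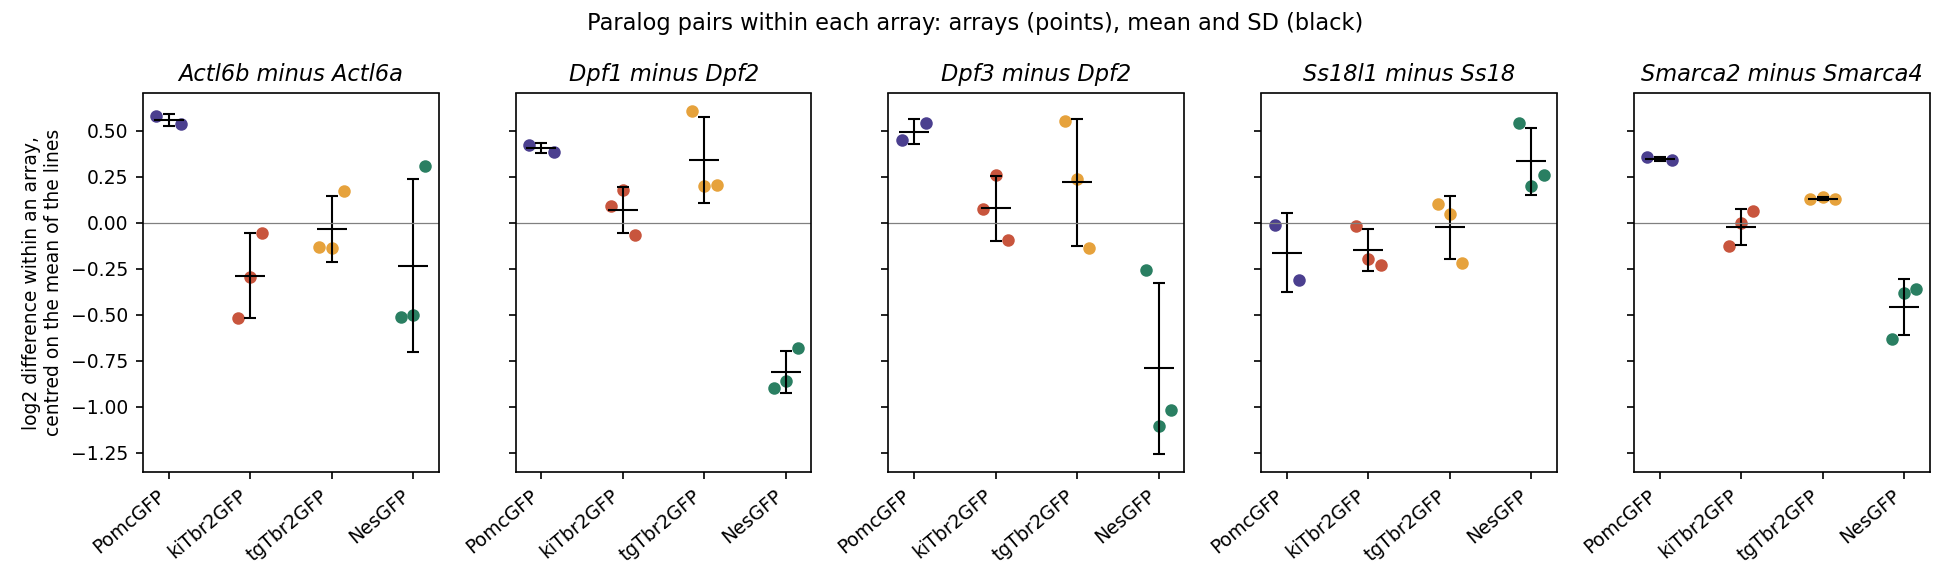
Log2 difference between paralogs on the same array, neuronal minus progenitor gene (Smarca2 minus Smarca4 in the right panel), centred on the mean of the lines, for each array (points) with mean and SD in black. PomcGFP lies above every other array for Actl6b minus Actl6a (0.58 and 0.53) and Smarca2 minus Smarca4 (0.36 and 0.34), and NesGFP lies above every other array for Ss18l1 minus Ss18 (0.20 to 0.54).

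The mean of the 4 neuronal genes minus that of the 4 progenitor genes, centred on its mean over the lines, was 0.31 and 0.27 in PomcGFP, -0.10, -0.00 and -0.14 in kiTbr2GFP, 0.13, 0.04 and -0.01 in tgTbr2GFP and -0.24, -0.45 and -0.11 in NesGFP. The PomcGFP arrays were the highest and NesGFP overlapped kiTbr2GFP. Since Ss18 counts against the order and Dpf2 with it, this mean joins opposite parts.

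Among subunits of BAF and PBAF complexes outside the 10 genes, the widest differences exceeded those of the 10 genes. Of 21 such genes 5 were higher and 6 lower in PomcGFP than in NesGFP, with a median of -0.03, where 39.9% of all genes passed. In the Tbr2 lines 5 were higher and 5 lower than in NesGFP, with a median of 0.12, where 48.9% of all genes passed. Pbrm1, the polybromo subunit of PBAF, was higher by 2.35 ± 0.36 (SE) in PomcGFP (limma, adjusted p = 0.000376) and by 2.87 ± 0.28 (SE) in the Tbr2 lines (adjusted p = 7.28e-06) than in NesGFP. Its values were 11.23 and 10.48 in PomcGFP, 11.66, 11.41 and 11.55 in kiTbr2GFP, 11.34, 11.17 and 11.13 in tgTbr2GFP and 8.28, 7.83 and 9.40 in NesGFP. Arid2, the ARID subunit of PBAF, was higher by 1.00 in PomcGFP and by 1.28 in the Tbr2 lines than in NesGFP, and Bcl11a, a zinc finger subunit of neural BAF, by 0.90 and 1.05. On the other side Bcl7b fell by 1.195 in PomcGFP and by 1.28 in the Tbr2 lines against NesGFP, Smarcd3, which encodes BAF60c, by 1.06 and 1.00, and Smarcb1, a core subunit, by 1.01 and 0.95. Between PomcGFP and the Tbr2 lines 0 of 21 passed in limma, where 3.73% of all genes passed. An unadjusted p under 0.05 was reached by 4 of the 21 and by 2191 of all 16527 genes. Between kiTbr2GFP and tgTbr2GFP 0 of 21 passed, where 1.12% of all genes passed. There 1 of the 21 and 1523 of all 16527 genes had an unadjusted p under 0.05.

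**Figure D4:**
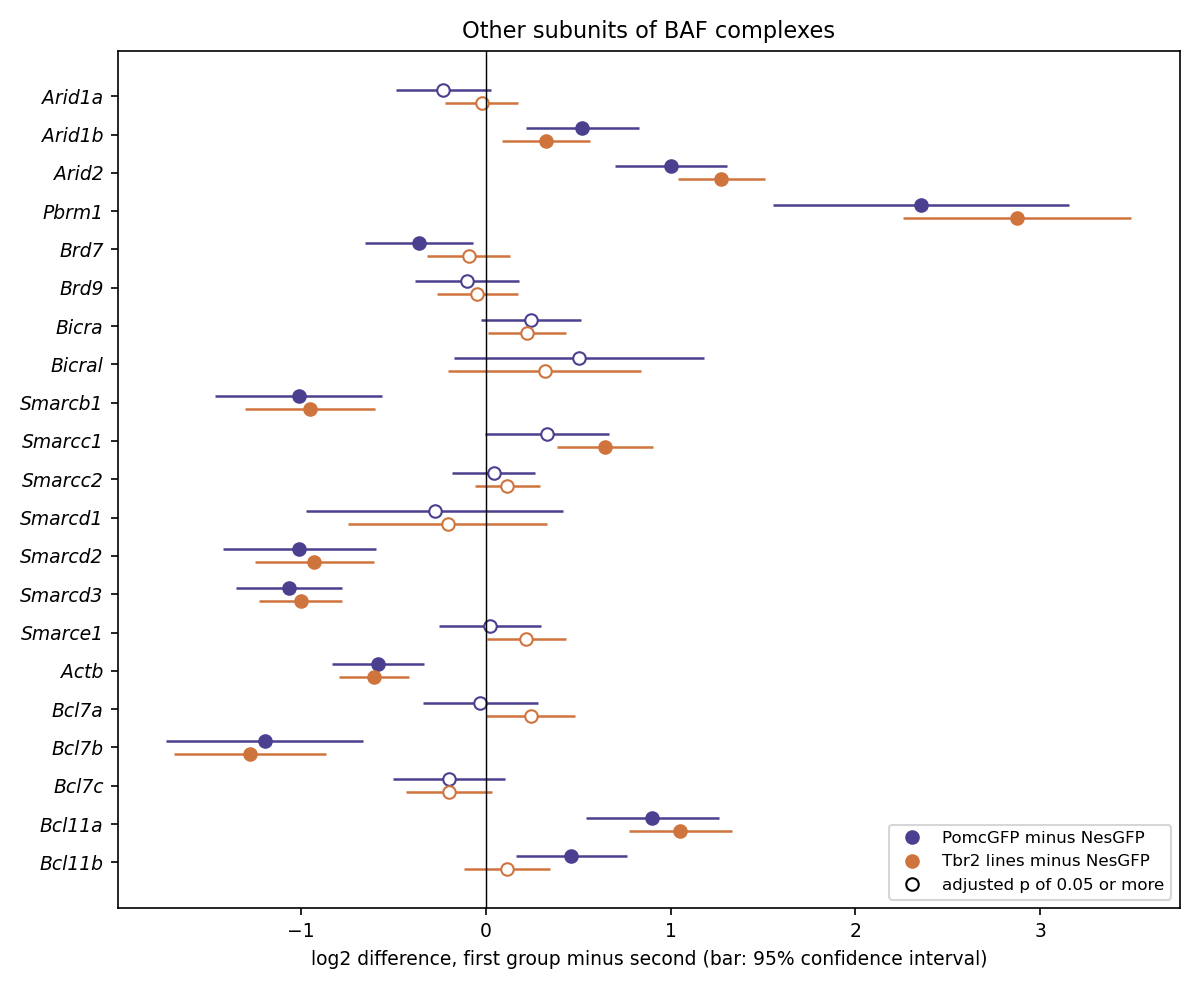
Log2 differences of 21 other BAF and PBAF subunit genes from NesGFP, for PomcGFP and for the mean of the Tbr2 lines, with 95% confidence intervals; filled points passed limma's test (adjusted p under 0.05). Pbrm1 at 2.35 and 2.87 lies farthest to the right and Bcl7b at -1.195 and -1.28 farthest to the left.

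The regulators of the switch were measured in part. Of 14 REST pathway and microRNA genes listed 11 were tested. Of all genes 39.9% passed in PomcGFP against NesGFP and 48.9% in the Tbr2 lines against NesGFP. Between PomcGFP and NesGFP 2 were higher (Rcor1, a REST corepressor, by 0.66, and Hdac2, a histone deacetylase, by 0.49) and 3 lower (Ctdsp1, a phosphatase of the REST complex, at -1.13, Hdac1 at -0.95 and Rcor2 at -0.45). These calls rest unevenly on single arrays: over the 20 other settings Rcor1 passed in 8, Rcor2 in 13 and Hdac2 in 19. Rcor1 was at 0.38 (adjusted p = 0.0961) when the first NesGFP array was left out and at 0.45 (adjusted p = 0.293) when the first PomcGFP array was, and 9 of the 11 single arrays each cost the call. Rcor2 lost its call when the first or second array of NesGFP or of PomcGFP was left out (adjusted p of 0.0546 to 0.132), and Hdac2 lost it without the second PomcGFP array (0.43, adjusted p = 0.0569). In the Tbr2 lines against NesGFP 5 were higher and 3 lower. The higher genes included Rcor1 by 0.99 and Hdac2 by 0.73, both past the test in all 20 other settings, and the miR-9 loci given below. The lower genes were Ctdsp1 at -0.92, Hdac1 at -0.81 and Rest. Rest itself stood at 7.14 and 7.50 in PomcGFP, at 7.32, 6.998 and 7.01 in kiTbr2GFP, at 7.38, 7.52 and 7.06 in tgTbr2GFP and at 7.23, 8.37 and 8.57 in NesGFP. The first NesGFP array lay among the other lines and the remaining NesGFP arrays above them. Rest was lower in the Tbr2 lines than in NesGFP (-0.84 ± 0.25, SE; limma, adjusted p = 0.0158), and its difference for PomcGFP against NesGFP was -0.74 ± 0.32 (SE; adjusted p = 0.0923). The call in the Tbr2 lines was lost when the second NesGFP array was left out (-0.68, adjusted p = 0.0757) and when the third was (-0.59, adjusted p = 0.0739).

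Of the miR-9 loci, the probe sets named Mir9-1 and Mir9-3 were tested. Their mature products are shown because miR-9-3p is the known repressor of Actl6a; the capitals mark the seed, bases 2 to 8, and the sequences are those of RefSeq (GRCm38.p6). The Mir9-1 copies lie at chr3:88215613-88215635 and chr3:88215652-88215673 and the Mir9-3 copies, of the same sequence, at chr7:79505279-79505301 and chr7:79505318-79505339, all on the plus strand.
mmu-miR-9-3p: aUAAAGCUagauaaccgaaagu
mmu-miR-9-5p: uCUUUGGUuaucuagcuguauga
Mir9-1 stood at 6.71 and 7.34 in PomcGFP, at 6.54, 8.18 and 7.36 in kiTbr2GFP, at 6.93, 6.69 and 7.59 in tgTbr2GFP and at 5.76, 6.26 and 5.98 in NesGFP. All 8 arrays outside NesGFP lay above the 3 NesGFP arrays. Mir9-1 was higher by 1.21 ± 0.32 (SE) in the Tbr2 lines than in NesGFP (limma, adjusted p = 0.00752), and its difference for PomcGFP against NesGFP was 1.03 ± 0.41 (SE; adjusted p = 0.0655). Mir9-3 stood at 5.87 and 6.14 in PomcGFP, at 6.11, 5.90 and 5.94 in kiTbr2GFP, at 6.86, 6.40 and 6.91 in tgTbr2GFP and at 5.28, 4.96 and 6.07 in NesGFP. The tgTbr2GFP arrays were the 3 highest and the third NesGFP array lay among the other lines. Outside tgTbr2GFP only the first kiTbr2GFP and the third NesGFP array exceeded the 25th percentile of their own array. Mir9-3 was higher by 0.92 ± 0.21 (SE) in the Tbr2 lines than in NesGFP (adjusted p = 0.00367), and for PomcGFP against NesGFP it differed by 0.57 ± 0.27 (SE; adjusted p = 0.121). By line, Mir9-3 differed from NesGFP by 0.55 in kiTbr2GFP (adjusted p = 0.0888) and by 1.29 in tgTbr2GFP (adjusted p = 0.00129), and kiTbr2GFP minus tgTbr2GFP was -0.74 ± 0.24 (SE; adjusted p = 0.263). Mir124a-2 was at 6.38 to 6.67 on all 11 arrays, with a difference of 0.00 ± 0.09 (SE; adjusted p = 0.997) for the Tbr2 lines against NesGFP. Whether these probe sets read precursor or mature RNA was not tested, so their values are not taken as levels of mature miR-9-3p or miR-124. Actl6a, as given above, passed in neither comparison.

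Among 28 tested subunits of INO80 and TIP60, the remodelling and acetyltransferase complexes that also hold ACTL6A, 5 were higher and 7 lower in PomcGFP than in NesGFP, with a median of -0.13. In the Tbr2 lines 5 were higher and 9 lower than in NesGFP, with a median of -0.01. Of all genes 39.9% passed the first of these comparisons and 48.9% the second, close to the shares here. Mbtd1 was higher by 1.33 in PomcGFP and 1.45 in the Tbr2 lines, Epc2 by 1.14 and 1.48, and Ino80, the ATPase of its complex, by 0.86 and 0.79. The call of Ino80 in PomcGFP was lost when the first or the second PomcGFP array was left out (adjusted p of 0.0871 and 0.0901). Kat5, the TIP60 acetyltransferase, was lower by 1.29 in PomcGFP and by 1.35 in the Tbr2 lines than in NesGFP. Meaf6, another TIP60 subunit, differed by -1.08 and -0.89, and the INO80 subunits Mcrs1 and Tfpt by -0.87 and -0.78 in PomcGFP and by -0.78 and -0.80 in the Tbr2 lines, and all passed as lower. Between PomcGFP and the Tbr2 lines 0 of 28 passed in limma, where 3.73% of all genes passed. An unadjusted p under 0.05 was reached by 2 of the 28 and by 2191 of all 16527 genes. Between kiTbr2GFP and tgTbr2GFP 0 of 28 passed, where 1.12% of all genes passed. There 1 of the 28 and 1523 of all 16527 genes had an unadjusted p under 0.05.

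Among 16 genes of the ISWI, CHD and related families of ATP-dependent remodellers, 11 were higher and 1 lower in PomcGFP than in NesGFP, with a median of 0.86, where 39.9% of all genes passed. In the Tbr2 lines 11 were higher and 0 lower than in NesGFP, with a median of 1.19, where 48.9% of all genes passed. Their counts were not tested against those of the BAF genes. Atrx, the remodeller that deposits histone H3.3 at repeats, averaged 10.84 ± 0.05 in PomcGFP (SD, n = 2), 10.81 ± 0.04 in kiTbr2GFP (n = 3), 10.88 ± 0.07 in tgTbr2GFP (n = 3) and 8.46 ± 0.40 in NesGFP (n = 3). Smarcad1 was higher by 2.25 in PomcGFP and 2.45 in the Tbr2 lines than in NesGFP, and Smarca1, an ISWI ATPase, by 2.24 in PomcGFP. Of the 4 lists only Hells, a remodeller of dividing cells, passed in PomcGFP against the Tbr2 lines, where 3.73% of all genes passed. It alone also passed in kiTbr2GFP against tgTbr2GFP, where 1.12% of all genes passed. It averaged 6.48 ± 0.02 in PomcGFP (SD, n = 2), 8.72 ± 0.26 in kiTbr2GFP (n = 3), 7.90 ± 0.17 in tgTbr2GFP (n = 3) and 5.66 ± 0.29 in NesGFP (n = 3). It was lower in PomcGFP than in the Tbr2 lines (-1.84 ± 0.17, SE; limma, adjusted p = 0.000215) and higher in kiTbr2GFP than in tgTbr2GFP (0.82 ± 0.17, SE; adjusted p = 0.0488). The second of these calls passed in 7 of the 20 other settings, with differences of 0.70 to 0.96 and an adjusted p of up to 0.197, and 9 of the 11 single arrays each cost it. The mean of the 7 dividing-cell markers was 6.73 on both PomcGFP arrays, 8.84 to 9.03 in kiTbr2GFP, 7.77 to 7.95 in tgTbr2GFP and 6.51 to 6.78 in NesGFP. Its part in the difference of Hells was not tested. On each NesGFP array Hells itself lay under the 25th percentile of that array.

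Genes whose log2 values followed Actl6a most closely over the 11 arrays, out of 15388 compared, were Nrf1 (Pearson r = 0.930), Anapc5 (0.921), Cnot11 (0.908), Blzf1 (0.890) and Cep20 (0.889). For Actl6b they were Lct (0.897), Fmnl1 (0.895), Amer3 (0.893), Caly (0.885) and Inpp5j (0.874). No gene reached an r of 0.95 with either. The arrays of a line share its differences, but these values also follow the spread within lines. Neither Actl6a nor Actl6b passed limma's F test over the 4 lines (adjusted p = 0.498 and 0.208). The NesGFP arrays alone had an SD of 0.55 for Actl6a. These genes were picked for the highest r of all compared, and how high r would reach among unrelated genes was not tested. Among the 10 genes themselves, r was -0.90 for Dpf2 with Ss18 and -0.05 for Actl6a with Actl6b.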

How the data were processed

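The deposited values are log2 expression values per probe set and array, which the authors computed with RMA, a method that corrects background, normalizes between arrays and summarizes probes, and with the oligo package (version not given), per the submitters' processing notes. The table holds 28858 probe sets. A single symbol was annotated to 21789, several to 1621 and none to 5448, and only the first kind was used. Probe sets above the 25th percentile of the array on at least 2 arrays were kept, and the highest mean stood for a gene, which left 16527 genes, the 10 BAF genes among them. Array 75th percentiles were 8.10 to 8.18 outside NesGFP and 8.23 to 8.35 in NesGFP.

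All 11 arrays entered 1 fit with a mean per line in limma 3.58.1 (R 4.3.3; 7 residual and 4.22 prior degrees of freedom), with two-sided moderated tests adjusted by the Benjamini-Hochberg method over all genes of a comparison. The fit was tested on simulated data. Alternatives were no filter and a filter at the 50th percentile, averaging a gene's probe sets, cyclic loess, centring on array medians, an intensity trend (robust prior), weights per array, a replicate block, the compared groups alone, and leaving out each array. Named genes are the 10 genes, up to 3 in each direction past the test of each list (other BAF subunits, INO80 and TIP60 subunits, REST and microRNA regulators, other remodellers), and the 5 most like Actl6a and Actl6b. Mir124a-2 falls outside this rule and was named after its values were seen. The genes, lists and tests were chosen with earlier results of these data known. Positions, promoters and microRNAs are from RefSeq (GRCm38.p6). Tables and figures were made with matplotlib 3.10.9, numpy 2.4.6 and pandas 2.3.3 under Python 3.11.15. Ino80e, Mir9-2, Mir124-1 and Ccnb1 of the lists were not used here, Mir124-3 (Mir124a-3 in the annotation) lay below the filter on low values, and 1 further listed gene is not reported here.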

Additional observations from a re-analysis of the deposited data

Results flagged for a closer look

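Hells, a chromatin remodeller of dividing cells, was flagged for a difference between the effects of the Tbr2 lines against NesGFP. Among the 10 BAF genes and the 4 lists of other chromatin genes it alone passed this comparison. Of all genes 1.12% passed there, so a single call among these genes is close to the background. The difference, kiTbr2GFP minus tgTbr2GFP, was 0.82 on the log2 scale (limma, adjusted p = 0.0488), with all 3 kiTbr2GFP arrays above the 3 tgTbr2GFP arrays. For 17.2% of all genes the arrays of these lines did not overlap. The call of Hells passed in 7 of the 20 other settings. Of the dividing-cell markers 5 of 7 also passed as higher in kiTbr2GFP than in tgTbr2GFP, where 0.436% of all genes did. Over all 7 the differences ran from 0.29 to 1.71. The part of these markers was not tested.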

How the results depend on the processing

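Each comparison was recomputed in 20 other ways, 11 of which leave out 1 array. Dpf2 and Ss18 passed with the same sign in all 20 for PomcGFP against NesGFP and for the Tbr2 lines against NesGFP, and Smarca2 in 17 and 20 of 20. Smarca4 passed in 14 of 20 for PomcGFP against NesGFP; for the Tbr2 lines against NesGFP Phf10 passed in 17 of 20 and Ss18l1 in 15 of 20. The number of the 10 genes that passed was 4 for PomcGFP against NesGFP, 2 to 7 when single arrays were left out and 2 in a fit of those lines alone (1658 of all genes higher and 2824 lower, against 2624 and 3967); fewer arrays estimate the spread there. It was 5 for the Tbr2 lines against NesGFP (4 to 5 without single arrays), 0 for kiTbr2GFP against tgTbr2GFP and 0 for PomcGFP against the Tbr2 lines, except with array weights, where it was 1 (Actl6b); the cause was not tested. Array weights also moved the calls over all genes to 825 higher and 799 lower in PomcGFP against the Tbr2 lines, where 331 and 286 passed without them, and to 561 and 832 in kiTbr2GFP against tgTbr2GFP, against 72 and 113. With the compared groups alone those were 524 and 498, and 118 and 146. Without single arrays they were 77 to 428 higher and 97 to 376 lower in PomcGFP against the Tbr2 lines and 30 to 99 higher and 28 to 161 lower in kiTbr2GFP against tgTbr2GFP. Scaling moved the split of calls over all genes: for the Tbr2 lines against NesGFP it was 3276 higher and 4813 lower as deposited, 4265 and 4202 after cyclic loess and 2762 and 5512 with centred medians; for PomcGFP against NesGFP it was 2624 and 3967, 3326 and 3383, and 2136 and 4607. The members passing then were 4 and 5 after cyclic loess and 4 and 5 with centred medians, in the same order. The shares of all genes passing without single arrays are not given here for the comparisons with NesGFP.

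Some differences near 0 turned sign, none of them past the test. After cyclic loess, the Tbr2 lines minus NesGFP became 0.15 for Actl6a, 0.23 for Dpf3 and 0.025 for Smarca4, and PomcGFP minus the Tbr2 lines 0.0078 for Phf10. With centred medians, the Tbr2 lines minus NesGFP became -0.053 for Actl6b and -0.0028 for Dpf1, and PomcGFP minus the Tbr2 lines -0.0207 for Dpf2. With array weights, the Tbr2 lines minus NesGFP became 0.0726 for Dpf3, PomcGFP minus the Tbr2 lines 0.0119 for Phf10 and -0.0105 for Dpf2, and kiTbr2GFP minus tgTbr2GFP 0.0415 for Dpf3 and -0.0451 for Ss18l1. Without single arrays, the Tbr2 lines minus NesGFP ran from -0.31 to 0.24 for Actl6a, -0.16 to 0.17 for Actl6b and -0.19 to 0.25 for Dpf3. PomcGFP minus the Tbr2 lines ran from -0.13 to 0.0605 for Phf10, -0.0544 to 0.0387 for Dpf2, -0.0823 to 0.20 for Ss18 and -0.0386 to 0.00994 for Ss18l1, and kiTbr2GFP minus tgTbr2GFP from -0.0983 to 0.0107 for Actl6b, -0.12 to 0.0849 for Dpf3 and -0.0222 to 0.0644 for Ss18l1. The cause of these turns was not tested.

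The labels give the lines the same replicate numbers. Deviations of same-numbered arrays from their line means correlated at -0.11 to 0.26 over 15 pairs (median 0.0446), and those of differently numbered arrays at -0.25 to 0.12 over 30 pairs (median -0.0167). With 7 of 11 arrays correlating best with their own number, the data hold a hint of shared structure that the labels do not state, and since not every pair exceeded 0.1 the numbers were not taken as pairs. With the replicate block 6 of the 10 genes passed for PomcGFP against NesGFP, 3 in each direction. Those passing in addition were Actl6b (0.44, adjusted p = 0.0455 in limma) and Phf10 (-0.41, adjusted p = 0.0241). With that block 5 passed for the Tbr2 lines against NesGFP and 0 in the other comparisons. The share of all genes passing with it is not set beside these counts. Of the 85 calls in the 4 lists of other chromatin genes, 64 passed in every other setting that gave a value, and none of the 85 changed sign in any.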

Other observations

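The BAF genes that were higher and lower outside NesGFP differed in the length of the gene on the genome, a pattern chosen after the values were seen. Over the 10 genes and the 21 other BAF subunits, Spearman's rho between genomic span and the log2 difference was 0.669 for PomcGFP minus NesGFP and 0.658 for the Tbr2 lines minus NesGFP. Over 75 chromatin genes, with INO80, TIP60 and other remodellers added, rho was 0.696 and 0.697. Over all 16463 genes with a RefSeq span it was 0.105 and 0.079, and over 15550 protein-coding genes 0.147 and 0.12. The 13 BAF genes of 51.3 kb or more (4116 of all genes reach that length) had a median difference of 0.46 for PomcGFP minus NesGFP and 0.33 for the Tbr2 lines minus NesGFP, and the other 18 had medians of -0.32 and -0.15. Of the 10 genes, Dpf2 (16.4 kb) was lower and Ss18 (58.8 kb) and Smarca2 (173.2 kb) were higher, while Smarca4 (88.1 kb) was lower in PomcGFP and Dpf3 (274.0 kb) passed in neither. The shorter Ss18l1 (27.7 kb) was higher in the Tbr2 lines, and Actl6b (16.2 kb) and Dpf1 (13.6 kb) had differences of 0.40 and 0.27 for PomcGFP minus NesGFP that did not pass. Both comparisons share the NesGFP arrays, genes are not independent replicates, and the part of amplification or RNA quality in this pattern was not tested.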
